A study of Mus musculus with 12 samples.

Results

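The genes described here are 10 mouse genes of MHC class I antigen processing and presentation: the heavy chains H2-K1 and H2-D1, the light chain B2m, the peptide transporter chains Tap1 and Tap2, the loading factor Tapbp, the immunoproteasome subunits Psmb8 and Psmb9, and the transcriptional regulators Nlrc5 and Irf1. They were taken by symbol from a table of gene counts, in which the Ensembl identifier of each was matched to its GRCm38 annotation. All 10 were found among the 53715 gene identifiers of the table, and all 10 were among the 18542 genes that passed the filter on low counts and were tested.

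Spleens of BXSB.Cg-Cd8atm1Mak Il15tm1Imx Yaa mice, named Yaa DKO in the labels, were profiled by poly(A) RNA sequencing in 12 libraries. Every group carried the same targeted Cd8a and Il15 alleles on the lupus-prone BXSB background with the Y-linked Yaa mutation, so no wild-type spleen was compared. Replicates 1 to 4 came from untreated mice of 6 weeks, described as pre-symptomatic, and replicates 5 to 8 from untreated mice of 10 weeks, described as symptomatic. Replicates 9 to 12 came from 10-week mice that drank 2-deoxyglucose (2DG), a form of glucose that cells take up but cannot break down by glycolysis, at 6 g/L. The labels do not say that each library came from a separate mouse, so p-values measure the spread between these libraries, which may be technical. The comparisons that follow from the design are 10 weeks against 6 weeks without treatment, 2DG against no treatment at 10 weeks, and 2DG at 10 weeks against 6 weeks untreated. They share libraries and are not independent of each other.

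Class I molecules display peptides cut from the cell's own proteins. Proteasomes cut the proteins, and under interferon the subunits Psmb8, Psmb9 and Psmb10 replace their constitutive counterparts to form the immunoproteasome. The Tap1 and Tap2 chains carry the peptides into the endoplasmic reticulum, where tapasin, the product of Tapbp, bridges the transporter to a heavy chain paired with B2m. Nlrc5 is the class I transactivator, which acts through a complex of other factors on class I promoters, and Irf1 is a transcription factor induced by interferon gamma. In the spleen these genes are active in lymphocytes and myeloid cells alike.

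Promoter sequence is shown for 6 of the genes, since the heavy chains, the light chain and the regulator Irf1 moved together below and since Tap1 and Psmb9 start next to each other. RefSeq windows on GRCm38.p6, each from 250 bases before to 50 bases after a start site, were matched for 8 of the 10 genes, in 10 windows; Tap2 and Nlrc5 had none. Capitals mark matches, on either strand, to a pair of interferon regulatory factor sites (GAANNGAAA), its shorter core (AANNGAAA), the gamma-activated site (TTCNNNGAA), the CCAAT box (CCAAT) and 1 form of the NF-kB site (GGGATTCCC). The first stretch is the last 120 bases before the H2-K1 start, at chr17:34000348-34000467 on the minus strand. The next pair are the 29 bases that span the NF-kB and interferon factor matches of H2-K1 (chr17:34000429-34000457, minus strand) and of H2-D1 (chr17:35262924-35262952, plus strand), which begin 110 and 170 bases before the respective start. The others are from B2m (chr2:122147537-122147685, plus strand), from the interval between Psmb9 and Tap1 (the 30 bases nearest the Psmb9 start, chr17:34187331-34187360, plus strand) and from Irf1 (chr11:53769864-53770013, plus strand).
H2-K1: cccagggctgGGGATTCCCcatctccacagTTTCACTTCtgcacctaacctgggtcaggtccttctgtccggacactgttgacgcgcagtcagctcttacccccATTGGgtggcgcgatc
H2-K1 sites: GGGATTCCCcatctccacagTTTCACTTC
H2-D1 sites: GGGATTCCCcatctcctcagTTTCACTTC
B2m: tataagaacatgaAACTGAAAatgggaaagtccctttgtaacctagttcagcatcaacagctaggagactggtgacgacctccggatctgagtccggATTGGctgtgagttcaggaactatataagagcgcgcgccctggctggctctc
Psmb9 and Tap1: tttCCAATcagcggctgcgcgcggtgcagg
Irf1: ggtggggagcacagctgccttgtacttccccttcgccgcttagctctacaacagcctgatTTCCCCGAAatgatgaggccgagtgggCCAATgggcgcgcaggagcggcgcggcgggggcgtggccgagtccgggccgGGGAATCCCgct

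The site stretches of the 2 heavy chain promoters were identical at 28 of 29 bases, and the 120-base stretches around them at 107 of 120 (89.2%), without a gap. Each site stretch was cut from its NF-kB match to its interferon factor match, and each longer stretch was placed by the same NF-kB match. The letters fixed by these motifs were therefore identical in advance. Matches were counted by gene, since H2-K1 has 2 windows, 14 bases apart, that hold the same sites, and Irf1 also has 2. The NF-kB form was found for 3 of the 8 matched genes (H2-K1, H2-D1 and Irf1) and for 0.414% of the 27025 genes with a window (0.353% of all 32851 windows). The pair of interferon factor sites was found for 2 genes (H2-K1 and H2-D1), against 8.68% of all genes (7.52% of windows). Its core, which every match of the pair contains and which was added after the windows had been read, was found for 3 (also B2m), against 26.7% (23.9% of windows). The gamma-activated site was found for Irf1, 90 bases before the start, and for Psmb8, 97 bases before the start, against 9.55% of all genes (8.3% of windows). The CCAAT box was found for 7 of the 8, all but Psmb8, against 41.1% of all genes (37.4% of windows); Tap1 and Psmb9 share the same box. The RefSeq starts of Tap1 (34187556) and Psmb9 (34187330) lie on opposite strands with 225 bases between them, so that their windows share 275 bases. A match describes the letters of a window and was not tested as a binding site.

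Library totals were 15596040 to 22480545 counts at 6 weeks, 20692818 to 26079979 at 10 weeks untreated and 21581820 to 23835453 with 2DG, and none of the 10 genes had fewer than 1474 counts in any library. The untreated 10-week libraries were the most unlike each other, as the spread fitted within each group (biological coefficient of variation) was 0.241 there, 0.127 for the 6-week libraries and 0.114 for those given 2DG. Replicate 8 stood apart from them: Cd8b1 had 97 counts there against 9 to 21 in replicates 5 to 7, and its immunoglobulin genes took 5.11% of counts against 8.97% to 10.7%. Counts over whole genes do not check a targeted allele (Cd8a had 582 to 1414 counts and Il15 had 82 to 169).

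The heavy and light chains were the most abundant of the 10 genes, and all 3 fell with 2DG. H2-K1 (ENSMUSG00000061232.15; chr17, 33996017 to 34000347, minus strand), which encodes a classical heavy chain, stood at 1611, 1503, 1633 and 1397 CPM (counts scaled to library size) in replicates 1 to 4, at 2521, 2201, 2063 and 1773 CPM in replicates 5 to 8, and at 1504, 1140.1, 1407 and 1620.0 CPM in replicates 9 to 12. Every untreated 10-week library lay above every other library. Against untreated spleens of 10 weeks, H2-K1 fell by 33.7% with 2DG (log2 change -0.59, SE 0.12, 95% interval -0.85 to -0.34, edgeR adjusted p = 0.0109). H2-D1 (ENSMUSG00000073411.11; chr17, 35262730 to 35267499, plus strand), the other classical heavy chain gene measured, stood at 1211, 1138, 1199 and 1090.1 CPM at 6 weeks, at 1823, 1564, 1503 and 1316 CPM at 10 weeks untreated, and at 1146, 921, 1124 and 1204 CPM with 2DG. It showed the same separation of the untreated 10-week libraries from the rest, and fell by 29.2% with 2DG (log2 change -0.50, SE 0.10, 95% interval -0.72 to -0.28, edgeR adjusted p = 0.0122). B2m (ENSMUSG00000060802.8; chr2, 122147686 to 122153083, plus strand), the light chain that pairs with class I heavy chains, stood at 2159, 1816, 2121 and 1652 CPM at 6 weeks, at 3253, 2536, 3004 and 2186 CPM at 10 weeks untreated, and at 1823, 1403, 1784 and 1892 CPM with 2DG. Its lowest untreated 10-week library, replicate 8, was just above its highest 6-week library, replicate 1. B2m fell by 37.1% with 2DG (log2 change -0.67, SE 0.13, 95% interval -0.96 to -0.38, edgeR adjusted p = 0.0118). In whole spleen, fewer cells of a type and less RNA per cell cannot be told apart.

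The transporter and its bridging factor fell as well, by different sizes. Tap1 (ENSMUSG00000037321.17; chr17, 34187553 to 34197225, plus strand) stood at 300.0, 249, 293 and 272 CPM at 6 weeks, at 445, 350.5, 352 and 309 CPM at 10 weeks untreated, and at 234, 181, 219 and 249 CPM with 2DG. The 2DG libraries lay below every untreated 10-week library, and the highest of them overlapped the lowest 6-week library. With 2DG, Tap1 fell by 39.4% against untreated spleens of that age (log2 change -0.72, SE 0.12, 95% interval -0.98 to -0.47, edgeR adjusted p = 0.00403). Its partner Tap2 (ENSMUSG00000024339.12; chr17, 34203527 to 34216321, plus strand) stood at 90.9, 86.6, 88.7 and 90.5 CPM at 6 weeks, at 123, 113, 103 and 92.6 CPM at 10 weeks untreated, and at 76.2, 66.1, 74.7 and 83.4 CPM with 2DG, so that the 3 groups did not overlap. Tap2 fell by 30.5% (log2 change -0.52, SE 0.09, 95% interval -0.72 to -0.33, edgeR adjusted p = 0.00465). Tapbp (ENSMUSG00000024308.14; chr17, 33915899 to 33929292, plus strand) stood at 316, 279.7, 289.6 and 279 CPM at 6 weeks, at 365, 271, 351 and 303 CPM at 10 weeks untreated, and at 255, 239, 249 and 263 CPM with 2DG. Here replicate 6, not replicate 8, was the lowest untreated 10-week library, and it lay below all 4 libraries of 6 weeks. The drop of Tapbp by 21.9% was the smallest of the 10 (log2 change -0.36, SE 0.09, 95% interval -0.55 to -0.17, edgeR adjusted p = 0.0274). It no longer passed in 6 alternatives, namely a fit of the compared groups alone and fits without replicate 5, 7, 9, 10 or 11, where the adjusted p reached 0.0941.

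**Figure D1:**
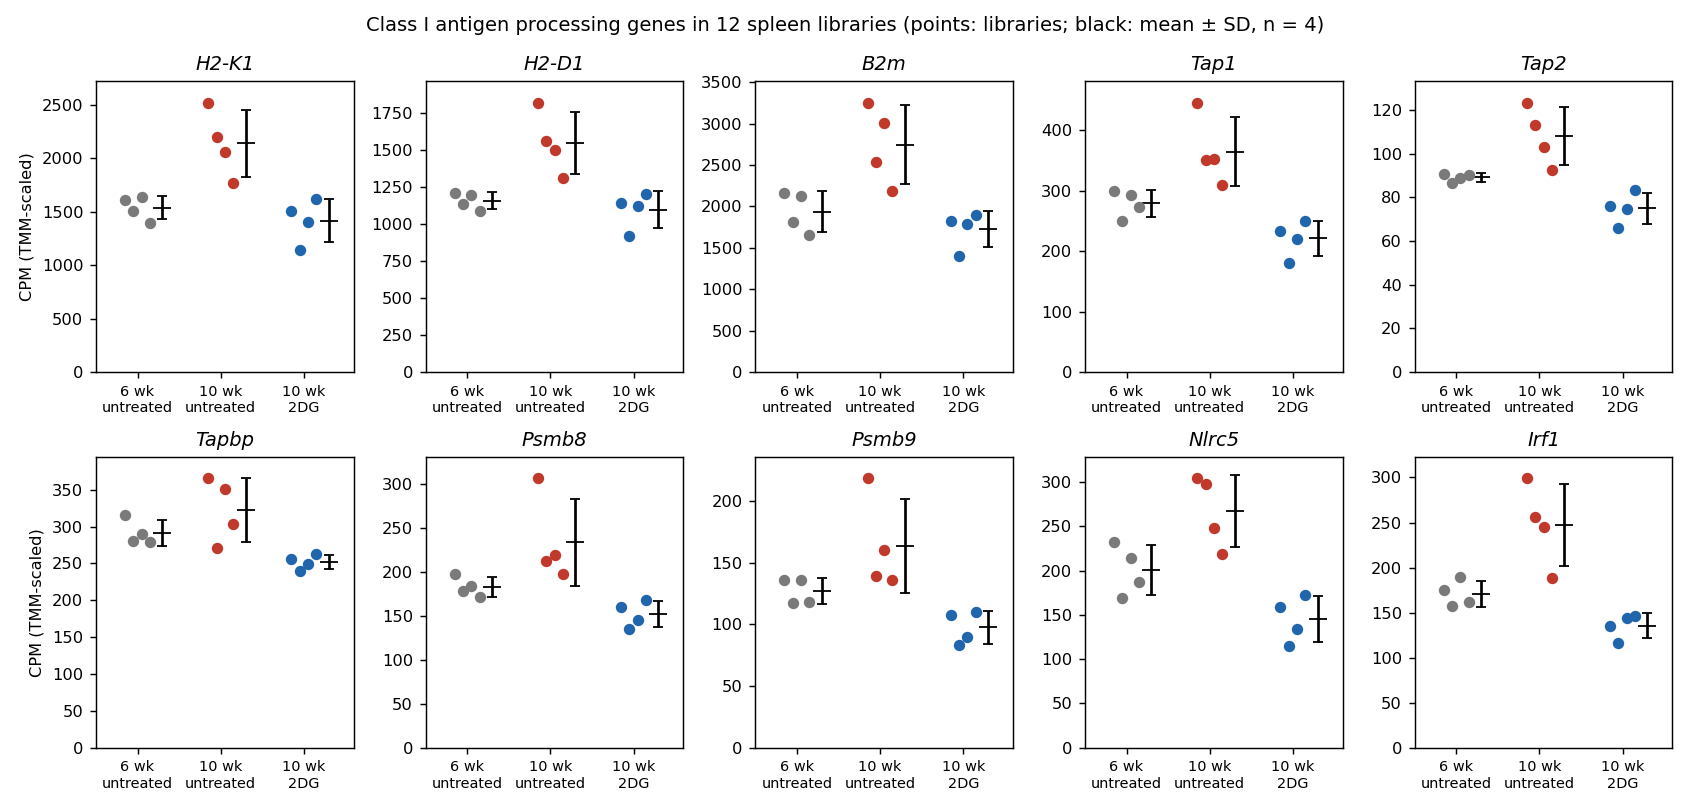
Counts scaled to library size (CPM, after TMM, linear axes from 0) of the 10 genes in each of the 12 spleen libraries, by group; points are libraries and black marks the mean with SD (n = 4). In all 10 panels the 2DG libraries lie below the untreated 10-week libraries, and Tap2 shows 3 groups that do not overlap.

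Of the immunoproteasome subunits, Psmb8 and Psmb9 both fell. Psmb8 (ENSMUSG00000024338.14; chr17, 34197721 to 34201454, plus strand), the chymotrypsin-like subunit, stood at 198, 178, 183 and 171 CPM at 6 weeks, at 306, 212, 219 and 197 CPM at 10 weeks untreated, and at 160.5, 135, 145 and 168 CPM with 2DG. Replicate 5 was far above the other untreated 10-week libraries, and replicate 8 fell inside the 6-week range. Psmb8 fell by 34.7% with 2DG (log2 change -0.62, SE 0.12, 95% interval -0.88 to -0.35, edgeR adjusted p = 0.011). Psmb9 (ENSMUSG00000096727.2; chr17, 34181987 to 34187764, minus strand), which shares its upstream region with Tap1, stood at 136, 117, 136 and 118 CPM at 6 weeks, at 218, 139, 160.4 and 136 CPM at 10 weeks untreated, and at 108, 82.9, 89.8 and 109.7 CPM with 2DG. All 4 of its 2DG libraries were below all 8 untreated libraries. Against untreated spleens of 10 weeks it fell by 40.3% (log2 change -0.74, SE 0.14, 95% interval -1.06 to -0.43, edgeR adjusted p = 0.0103).

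The 2 regulators showed the largest drops. Nlrc5 (ENSMUSG00000074151.13; chr8, 94434356 to 94527272, plus strand) stood at 233, 169, 214 and 187 CPM at 6 weeks, at 304, 298, 248 and 219 CPM at 10 weeks untreated, and at 159, 115, 134 and 173 CPM with 2DG. Its 2DG libraries were all below the untreated libraries of the same age, while replicate 12 overlapped the 6-week range. Nlrc5 fell by 45.8% (log2 change -0.88, SE 0.15, 95% interval -1.20 to -0.56, edgeR adjusted p = 0.00473). Irf1 (ENSMUSG00000018899.16; chr11, 53770014 to 53778374, plus strand) stood at 175, 157, 189.7 and 162 CPM at 6 weeks, at 299, 256, 245 and 188 CPM at 10 weeks untreated, and at 135, 116, 144 and 146 CPM with 2DG. Replicate 8 lay just inside the 6-week range, and all 2DG libraries lay below it. Irf1 fell by 45.2% and had the smallest adjusted p of the 10 genes (log2 change -0.87, SE 0.12, 95% interval -1.13 to -0.60, edgeR adjusted p = 0.00222).

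For 2DG against no treatment at 10 weeks, then, 10 of the 10 genes passed the threshold as lower, where 5.26% of all tested genes did (7.42% in either direction, 2.16% higher). The libraries of the 2 groups did not overlap for any of the 10, against 7.91% of all tested genes that were lower without overlap, and the unadjusted p was under 0.05 for all 10, against 12.8% of all tested genes with a negative change. The median log2 change of the 10 was -0.64 (from -0.88 to -0.36), against 0.0096 over all tested genes. In a fit of the compared groups alone, 8 of the 10 passed as lower, against 2.79% of all tested genes there; H2-D1 (adjusted p = 0.0532) and Tapbp (adjusted p = 0.0839) did not. No log2 change of the 10 turned sign in any of the 20 alternatives, in which the values ran from -1.01 to -0.29.

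**Figure D2:**
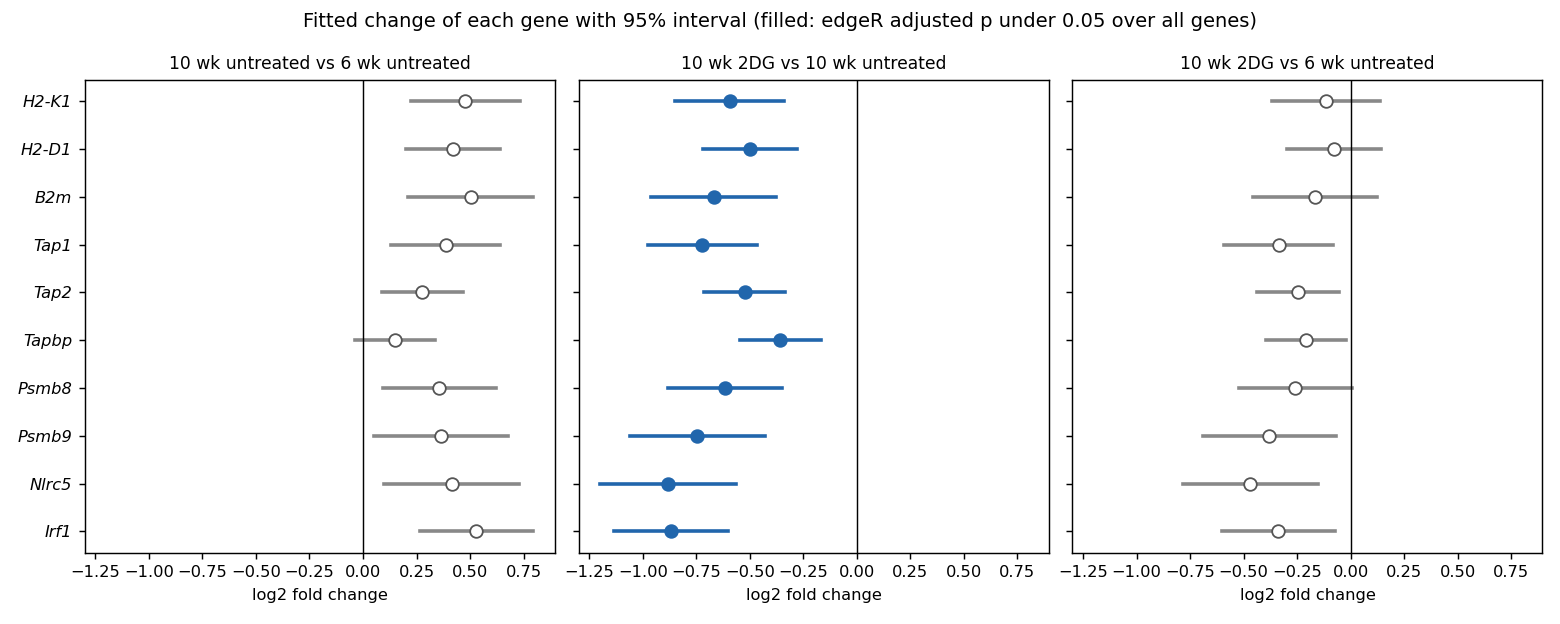
Fitted log2 fold change of each gene in the 3 comparisons with its 95% interval; filled points passed an edgeR adjusted p of 0.05 over all tested genes. The middle panel holds 10 filled points from -0.88 to -0.36, and the outer panels hold none.

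Between 6 and 10 weeks without treatment, all 10 genes had positive log2 changes, and none passed. The changes ran from 0.15 for Tapbp to 0.53 for Irf1 (SE 0.12, adjusted p = 0.0947, the smallest of the 10), with a median of 0.40 against 0.0073 over all tested genes. In this comparison 0% of tested genes passed as higher, and 1 gene, or 0.00539%, passed in either direction. An unadjusted p under 0.05 was reached by 9 of the 10 genes, against 9.26% of tested genes with a positive change. The libraries of 10 weeks were above those of 6 weeks without overlap for 5 of the 10 (H2-K1, H2-D1, B2m, Tap1 and Tap2), against 3.64% of all tested genes. B2m averaged 1937 ± 244 CPM at 6 weeks and 2745 ± 476 CPM at 10 weeks (SD, n = 4 each), and Irf1 171 ± 14.6 and 247 ± 45.7 CPM.

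The count for age turned on replicate 8, which had the lowest level of its group for 9 of the 10 genes. Without it, 6 of the 10 passed as higher at 10 weeks (H2-K1, H2-D1, B2m, Tap1, Tap2 and Irf1), against 4.57% of all tested genes, and Irf1 had a log2 change of 0.64 (SE 0.10, edgeR adjusted p = 0.00531). Without both replicates 6 and 8, 9 of the 10 passed, all but Nlrc5, against 6.42% of tested genes. DESeq2 on all libraries called 4 of the 10 higher (H2-K1, H2-D1, B2m and Irf1), against 2.59% of the genes to which it gave an adjusted p, and a fit with no filter on low counts called H2-D1 alone (adjusted p = 0.0476), against 0.194%.

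With 2DG at 10 weeks, no gene of the 10 passed against untreated spleens of 6 weeks, and the fitted values were all lower. The log2 changes were negative for 10 of 10, with a median of -0.25 against -0.0023 over all tested genes, and 0 were called (0.0917% of tested genes passed as lower, 0.0378% as higher and 0.129% in either direction). The heavy chains were nearest to the younger spleens, at -0.08 for H2-D1 (95% interval -0.30 to 0.14) and -0.12 for H2-K1 (-0.37 to 0.14), and Nlrc5 was farthest, at -0.47 (-0.78 to -0.15, edgeR adjusted p = 0.135). For 5 of the 10 (Tap2, Tapbp, Psmb8, Psmb9 and Irf1) the 2DG libraries lay below the 6-week libraries without overlap, against 7.69% of all tested genes, and 6 of the 10 had an unadjusted p under 0.05, against 8.14% with a negative change. Psmb9 averaged 97.5 ± 13.2 CPM with 2DG and 127 ± 10.5 CPM at 6 weeks (SD, n = 4 each). A fit of these 2 groups alone called 4 genes lower (Irf1, Psmb9, Tap2 and Tapbp), against 3.11% of all tested genes, limma voom with quality weights called 3 (Nlrc5, Psmb9 and Tap2), against 3.8%, and DESeq2 called Nlrc5 alone, against 2.25%.

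Per kilobase of exon, the levels spanned a wide range. The length used was that of all annotated exons of a gene merged, which can exceed the length of a single transcript. The order below therefore depends on the annotation, and the order by transcript length was not tested. At 6 weeks B2m led with 2252 ± 284 CPM per kb (SD, n = 4), followed by H2-K1 with 523 ± 37.0 and H2-D1 with 449.7 ± 21.8. Tapbp came next with 80.3 ± 4.74 CPM per kb. Psmb8 (54.0 ± 3.38) and Tap1 (50.9 ± 4.19) did not differ beyond their SDs. Irf1 at 43.0 ± 3.67 and Psmb9 at 34.6 ± 2.86 CPM per kb followed. Tap2 (23.6 ± 0.517) and Nlrc5 (23.6 ± 3.34) were level at the foot of the order.

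The 10 genes ranked the libraries in much the same order within each 10-week group, and less so at 6 weeks, where replicate 1 was the highest for 7 genes and replicate 3 for 3, and replicates 2 and 4 were each the lowest for 5. In untreated spleens of 10 weeks, replicate 5 was the highest library for 10 of the 10 genes and replicate 8 the lowest for 9, the exception being Tapbp. With 2DG, replicate 10 was the lowest and replicate 12 the highest for all 10. Averaged over the 10 genes on a scale standardised over the 12 libraries, replicates 5 to 8 stood at 1.92, 0.89, 1.05 and 0.30, replicates 9 to 12 at -0.69, -1.62, -0.95 and -0.43, and replicates 1 to 4 at 0.21, -0.37, 0.08 and -0.38. Replicates 5 and 7 exceeded the highest 6-week library for 10 genes, replicate 6 for 9 and replicate 8 for 5. Replicate 10 was below the lowest 6-week library for all 10, replicates 9 and 11 for 7 each, and replicate 12 for 5.

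**Figure D3:**
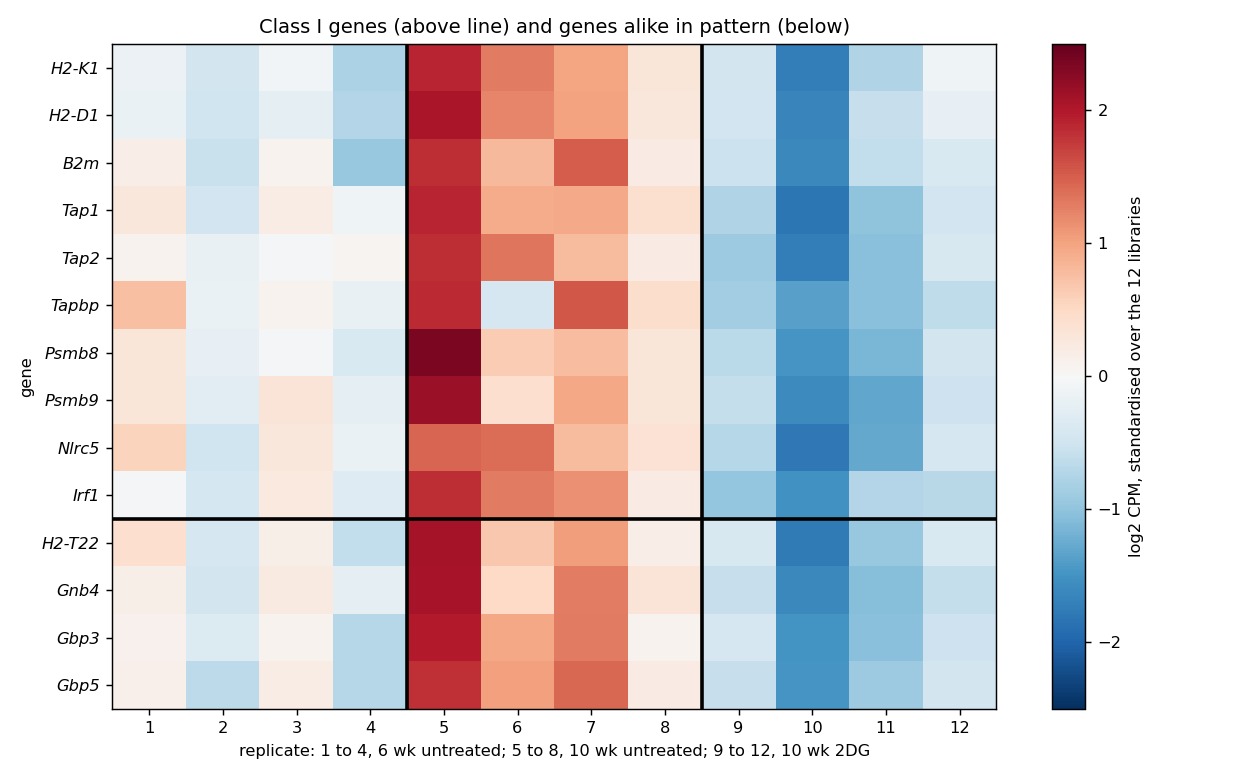
Log2 CPM standardised over the 12 libraries for the 10 genes (above the line) and for 4 other genes of near pattern (below it); columns are replicates in their 3 groups. Replicate 5 is the reddest column, with a mean of 1.92 over the 10 genes, and replicate 10 the bluest, with a mean of -1.62.

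Over the 12 libraries, 12611 other genes of sufficient level were ranked by their root-mean-square distance from the mean standardised pattern of the 10. Among the nearest were H2-T22 (0.159), a nonclassical class I heavy chain; Gnb4 (0.166), a G protein beta subunit; and the guanylate-binding proteins Gbp3 (0.168) and Gbp5 (0.191). For comparison, the 10 genes themselves lay between 0.114 for Tap1 and 0.468 for Tapbp, although each had entered the mean. Gbp5 averaged 59.0 ± 11.4 CPM at 6 weeks, 103 ± 26.6 CPM at 10 weeks untreated and 46.6 ± 7.87 CPM with 2DG (SD, n = 4 each), so that its ordering of the groups was the same as for all 10 genes. Gnb4 averaged 33.6 ± 1.80, 40.6 ± 5.40 and 29.1 ± 2.30 CPM in the same order. Since these genes were picked for their likeness, no test is given for Gnb4, Gbp3 and Gbp5; H2-T22 is also in the list of nonclassical heavy chains below, where its call is not independent of this choice.

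Genes of the same pathway were read from lists by role, first for 2DG against no treatment at 10 weeks. The shares of all tested genes to set beside each list are 5.26% lower and 2.16% higher. Of 15 nonclassical class I heavy chains, 13 were tested; 7 fell (H2-T22, H2-T23, H2-T10, H2-Q2, H2-Q4, H2-Q7 and H2-M3), 1 rose (Cd1d1), 5 did not pass, and the median log2 change was -0.42. H2-T23, whose product presents leader peptides of other class I chains, averaged 315 ± 53.9 CPM untreated and 228 ± 18.3 CPM with 2DG (log2 change -0.47, SE 0.10, edgeR adjusted p = 0.0184). H2-Q2 stood at 5.06 ± 1.69 and 1.86 ± 0.522 CPM (log2 change -1.43, SE 0.26, edgeR adjusted p = 0.0069), at 32 to 143 counts a library. Cd1d1, which presents lipids rather than peptides, averaged 27.7 and 41.6 CPM and rose (log2 change 0.59, SE 0.14, edgeR adjusted p = 0.0273). H2-Q2 kept its call in all 20 alternatives, whereas H2-T23 lost it in 3, H2-T22 and H2-Q4 in 4 each, H2-Q7 in 5, Cd1d1 in 6, H2-M3 in 8 and H2-T10 in 12. Of this list 1 gene passed as lower without replicate 10 (439 of 18737), without replicate 11 (440 of 18781) or with the compared groups alone (2.79%). Without replicate 5, 3 passed as lower (575 of 18865), and without replicates 6 and 8, 9 did (9.27%). Parentheses give the tested genes of all kinds that passed as lower in the same fit. H2-T10, H2-Q4, H2-Q7, H2-M3 and Cd1d1 were named after their values were seen.

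Among the partners of trimming and loading, 3 of 7 fell and none rose, with a median log2 change of -0.39. Tapbpl, a tapasin-related editor of peptides, averaged 66.1 ± 10.9 CPM untreated and 42.6 ± 4.19 CPM with 2DG (log2 change -0.63, SE 0.11, edgeR adjusted p = 0.00635). Erap1, which trims peptides in the endoplasmic reticulum, averaged 169 ± 6.36 and 137 ± 7.95 CPM, a smaller change with little spread (log2 change -0.30, SE 0.06, edgeR adjusted p = 0.0116). Lnpep, an aminopeptidase of endosomes, fell too (log2 change -0.39, adjusted p = 0.0312), a call lost in 7 of the 20 alternatives. The general chaperones Calr, Canx and Pdia3 and the peptidase Tpp2 did not pass.

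Among the remaining proteasome genes, 2 of 3 other inducible parts, 0 of 3 constitutive counterparts and 1 of 11 other core subunits passed as lower. The share of all tested genes was 5.26%. Of the 3 other inducible parts, Psme1, a subunit of the proteasome activator, stood at 158 to 223 CPM untreated, and at 126 to 144 CPM with 2DG, where it was lower (log2 change -0.39, SE 0.10, edgeR adjusted p = 0.0314), while Psmb10, the third catalytic immunoproteasome subunit, averaged 83.7 ± 17.5 and 61.8 ± 5.86 CPM (log2 change -0.44, SE 0.12, edgeR adjusted p = 0.0484). Psme1 lost its call in 4 alternatives out of 20 and Psmb10 in 11. Psme2, the other activator subunit, had a log2 change of -0.39 and did not pass (edgeR adjusted p = 0.0869), but it passed as lower in 3 of the 20 alternatives, by voom (adjusted p = 0.0347), without replicate 6 (0.0172) and without replicates 6 and 8 (0.00132). None of the 3 constitutive counterparts passed: Psmb5 had a log2 change of -0.23 (adjusted p = 0.259), Psmb6 of -0.20 (adjusted p = 0.139) and Psmb7 of -0.13 (adjusted p = 0.487). Without replicates 6 and 8, where 9.27% of all tested genes passed as lower, Psmb6 (log2 change -0.31, edgeR adjusted p = 0.0183) and Psmb7 (-0.31, adjusted p = 0.0423) passed as well. Of the 11 other subunits of the core particle, 1 passed as lower (Psma4, log2 change -0.31, adjusted p = 0.0436, lost in 9 alternatives), all 11 had negative changes and the median was -0.24. An unadjusted edgeR p under 0.05 was reached by 9 of these 11, against 12.8% of all tested genes with a negative change. For 4 of the 11 the 2DG libraries were lower without overlap, against 7.91% of all tested genes.

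To ask whether inducible subunits moved relative to the subunits they replace, the log2 ratio of their counts was taken within each library, which needs no scaling by depth. The log2 ratio of Psmb9 to Psmb6 was 0.834 ± 0.0675 at 6 weeks, 0.996 ± 0.153 at 10 weeks untreated and 0.458 ± 0.181 with 2DG (SD, n = 4 each). With 2DG it was lower than at 10 weeks untreated by 0.54 and lower than at 6 weeks by 0.38, in both cases without overlap. The Psmb8 to Psmb5 ratio was 3.68 ± 0.112, 3.80 ± 0.117 and 3.43 ± 0.249, and 2DG was lower than untreated at 10 weeks without overlap, by 0.37. For these 3 differences the two-sided exact permutation test gave its smallest possible p with 4 against 4 libraries, 0.0286, and 0.0857 after adjustment over the 9 ratio tests. The ratio of Psmb10 to Psmb7 was 0.246 ± 0.100, 0.363 ± 0.151 and 0.0617 ± 0.138, with a difference of -0.30 for 2DG at 10 weeks (exact p = 0.0571, adjusted p = 0.103). At that smallest p, 6 of the 9 tests would have to reach it for any to pass after adjustment. Only 3 reached it, so none passed. The 3 differences between untreated ages were 0.12, 0.16 and 0.12.

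**Figure D4:**
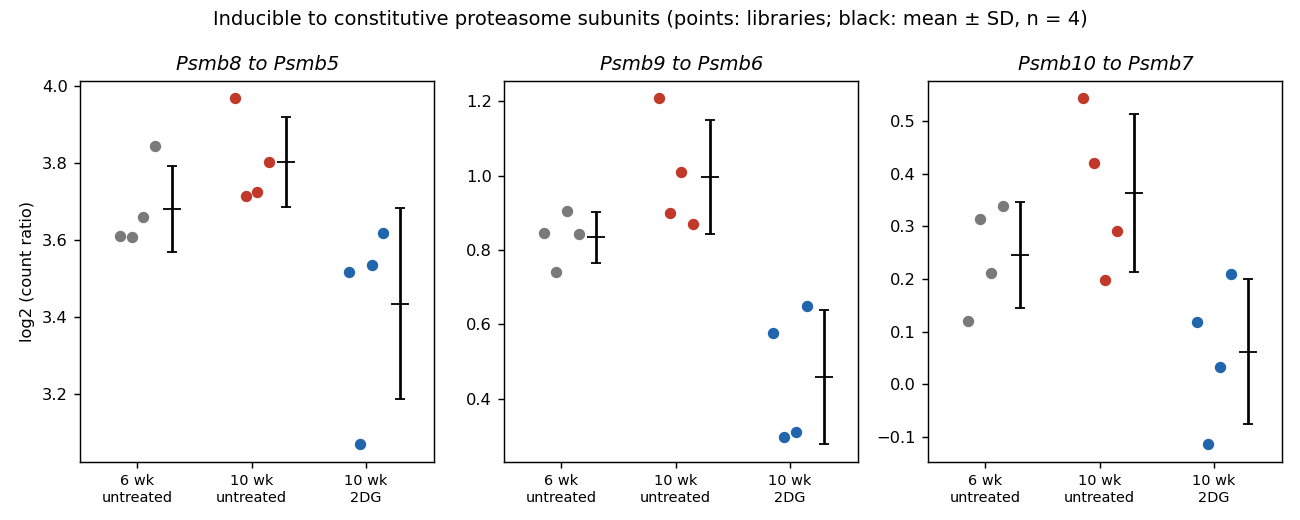
Log2 ratio of counts of each inducible catalytic subunit to the constitutive subunit it replaces, in each library by group (the axes do not start at 0); black marks the mean with SD (n = 4). For Psmb9 to Psmb6 the 2DG libraries, at 0.458 on average, lie below all untreated libraries.

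Upstream of these genes, 3 of 12 genes of interferon signalling fell with 2DG, none rose, and the median log2 change was 0.02; the other 9 did not pass the test. Ifng, which encodes interferon gamma, was rare, with 6 to 80 counts a library: 0.886, 0.840, 0.957 and 0.798 CPM at 6 weeks, 4.17, 1.27, 2.43 and 1.28 CPM at 10 weeks untreated, and 0.926, 0.251, 0.433 and 0.312 CPM with 2DG. Replicate 5, the highest library for all 10 class I genes, was also the highest for Ifng, and replicate 10, the lowest for all 10, was also the lowest. Other extremes differed. With 2DG, Ifng was highest in replicate 9, whereas the 10 class I genes were highest in replicate 12. At 10 weeks untreated, Ifng was as low in replicate 6 as in replicate 8, the lowest for 9 of the 10. Ifng fell (log2 change -2.22, SE 0.45, edgeR adjusted p = 0.0118), as did Socs1, an inhibitor of this signalling (log2 change -0.97, adjusted p = 0.0326), and Irf2 (log2 change -0.27, adjusted p = 0.0321). The call of Irf2 was lost in 8 alternatives, that of Socs1 in 7 and that of Ifng in 1. The receptor and kinase genes Ifngr1, Ifngr2, Ifnar1, Ifnar2, Jak1, Jak2 and Tyk2, and Stat2 and Irf9, did not pass.

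The factors that carry Nlrc5 to class I promoters, and the class II genes, showed no call. None of 8 genes of the RFX, NF-Y and CREB groups passed, at a median log2 change of 0.09; 3 had an unadjusted p under 0.05, against 24.5% of all tested genes, and Nfya had the smallest p (log2 change 0.30, adjusted p = 0.102). None of 5 genes of class II presentation passed with 2DG, at a median of -0.09, and 0 of the 5 had an unadjusted p under 0.05 by edgeR. Ciita, the class II transactivator and a relative of Nlrc5, averaged 393 ± 67.7 CPM untreated at 10 weeks and 412 ± 42.8 CPM with 2DG (log2 change 0.07, adjusted p = 0.774), and the class II chain H2-Eb1 1521 ± 282 and 1320.0 ± 101 CPM (log2 change -0.20, adjusted p = 0.259).

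In the comparisons with the 6-week spleens, edgeR over all 12 libraries called none of the 62 tested genes of these 8 lists. Between the untreated ages, 26 of the 62 had an unadjusted p under 0.05, against 17.1% of all tested genes. Among the 26 were 9 of the 13 nonclassical heavy chains and 8 of the 11 other core proteasome subunits. Without replicate 8, 12 of the 62 passed as higher at 10 weeks (H2-M2, H2-M3, H2-Q2, H2-Q4, H2-Q6, H2-Q7, H2-T23, Tapbpl, Psma5, Psmb2, Ifng and Socs1) and 1 as lower (Rfx5), where 4.57% of all tested genes passed as higher. Without replicates 6 and 8, 27 passed as higher, against 6.42% of all tested genes, and 1 as lower, against 1073 of 19159. By DESeq2 7 passed as higher, against 2.59% of all genes given an adjusted p. No gene of the 62 passed in the other 17 alternatives. Between 2DG and 6 weeks, 6 of the 62 had an unadjusted p under 0.05, against 16.9% of all tested genes. With the compared groups alone, 4 passed as lower with 2DG (Erap1, Lnpep, Irf2 and Psme2), where 3.11% of all tested genes did. As higher 1 passed (Cd1d1), where 803 of 18139 did. As lower, 2 passed by DESeq2 (Erap1 and Lnpep), against 2.25% of all genes given an adjusted p. By voom and without replicates 6 and 8, 3 passed as lower in each (Erap1, Lnpep and Irf2), against 3.8% and 342 of 19159. Without replicate 6, 1 passed as lower (Irf2), against 157 of 18831. Cd1d1 passed as higher also without replicates 6 and 8, where 416 of 19159 did. By voom Nfyc, a subunit of NF-Y, passed as higher, where 960 of 18542 did. The genes given here by setting were named after their values were seen.

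**Figure D5:**
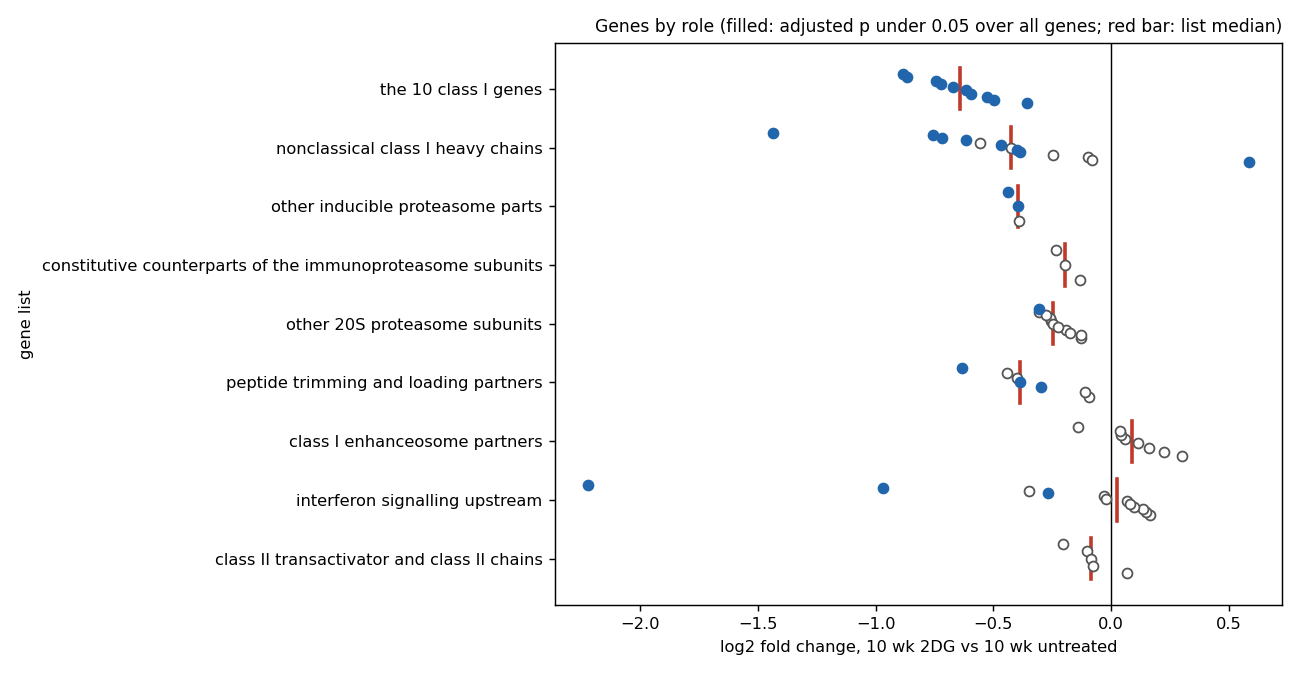
Log2 fold change of each tested gene, 2DG against untreated at 10 weeks, by role; filled points passed an edgeR adjusted p of 0.05 over all tested genes and the red bar is the list's median. The 10 class I genes (median -0.64) are all filled, and the class II list (median -0.09) holds no filled point.

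Markers of several cell types moved with the groups. Calls in these lists are for 2DG against no treatment at 10 weeks, where 5.26% of all tested genes passed as lower and 2.16% as higher. The summed level of 8 plasma cell markers was 2139 to 4011 CPM at 6 weeks, 3669 to 6649 CPM at 10 weeks untreated and 1628 to 2536 CPM with 2DG, and 7 of the 8 fell with 2DG. Monocyte and macrophage sums were 927 to 1277, 1024 to 1953 and 1095 to 1220 CPM, with 2 of 8 lower (Ly6c2 and C1qa). Natural killer cell markers summed to 15.2 to 18.4, 18.2 to 29.1 and 12.7 to 16.3 CPM, with 2 of 5 tested lower (Klrk1 and Eomes) and Klra8, which was not tested, at 0 counts in some libraries. Dendritic cell markers summed to 301 to 365, 277 to 293 and 290.2 to 361 CPM, with 3 of 8 higher (Zbtb46, Clec9a and Cd209a). B cell markers summed to 4725 to 5586, 2879 to 5772 and 4932 to 5437 CPM and T cell markers to 514 to 694, 504 to 668 and 476 to 654 CPM, with 0 of 8 called in either list. Erythroid markers summed to 5660 to 8666, 2029 to 17032 and 10494 to 22017 CPM, with 0 of 8 called. All 8 had positive log2 changes for 2DG against untreated at 10 weeks, with a median of 1.06. With 2DG, replicate 10, the lowest library for all 10 class I genes, had the highest erythroid sum and replicate 12 the lowest. Platelet sums had the same extremes with 2DG, whereas B cell and T cell sums had the reverse. At 10 weeks untreated the erythroid sum was highest in replicate 7 and lowest in replicate 6, and the platelet sum was highest in replicate 7 and lowest in replicate 5. In that group replicate 5 was the highest library for all 10 class I genes and replicate 8 the lowest for 9. Neutrophil and stromal lists had 0 of 6 called each, and the platelet list 1 of 6 (Vwf, higher). All lists but that for natural killer cells had every marker present in every library. The part of these cell types in the class I values was not tested.

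Immunoglobulin genes took 2.79% to 4.94% of counts at 6 weeks, 5.11% to 10.7% at 10 weeks untreated and 1.93% to 3.08% with 2DG. With these genes removed before scaling, 10 of the 10 class I genes still passed as lower with 2DG against no treatment at 10 weeks, where 903 of 18326 tested genes did.

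Of the 10 genes, 7 lie on chromosome 17, and 6 of these lie in the interval from H2-K1 to H2-D1 (chr17, 33996017 to 35267499), which was chosen after the values had been seen. The interval holds 91 tested genes. Of the 85 that are not among the 10, 3 (3.53%) passed for 2DG against untreated at 10 weeks (Btnl6 and Slc39a7 lower, Tnxb higher), and their median log2 change was -0.03. In each of the other 2 comparisons 0 of the 85 passed by edgeR.

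Some reads of these genes could belong to others, since the library kit does not mark strand and since heavy chain genes are alike. Of the 50-base windows in the longest coding transcript, 8.79% for H2-K1 and 14.3% for H2-D1 also occurred in transcripts of other genes, foremost H2-D1 and H2-Q1, respectively. Tap1 and Psmb9 share 212 exon bases on opposite strands, which is 12.5% of the Psmb9 windows. For Tapbp 21.0% of windows were shared, mostly with the antisense gene Gm19412, which had at most 5 counts in a library. In the annotation Tapbp also shares 149 exon bases on the same strand with Zbtb22, which had up to 752 counts. For Tap2 12.6% of windows were shared, foremost with Gm15821 on the opposite strand, which had up to 86 counts. No window of the B2m or Nlrc5 transcript was shared, but in the annotation Nlrc5 shares 78 exon bases on the opposite strand with 9330175E14Rik, which had up to 1196 counts in a library. How many reads were assigned to the wrong gene was not tested.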

How the data were processed

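Per the labels' protocols, whole spleen RNA was poly(A)-selected and made into libraries with Illumina's TruSeq RNA kit v2; strand is not kept by this kit. Counts per gene were deposited as whole numbers by the authors. The submitters' processing notes name Bowtie2 2.2.0, RSEM 1.2.12 and the build GRCm38; the step that made estimates whole is not given in those sources. Of 53715 identifiers, 53620 were matched to symbols in the GENCODE M21 annotation and 95 were not.

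Counts were tested with edgeR 4.0.16 in R 4.3.3 (TMM scaling, filterByExpr, robust quasi-likelihood fit over all 12 libraries, 18542 genes), with Benjamini-Hochberg adjustment over all genes tested and a threshold of 0.05. The procedure was also run on simulated counts with the same spread in every group. That run did not cover the unequal spread of the groups here. CPM are TMM-scaled counts. Intervals are at 95%. Count ratios were compared by exact permutation tests. Library totals of 15596040 to 26079979 counts set the precision.

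The 10 genes, the lists by role and the marker lists were chosen with earlier results of these data known. Genes named were the 10, up to 3 per list with the smallest adjusted p, others listed by symbol (such as Psmb5 and Ciita) and those most alike over the libraries with an average log2 CPM of at least 2; other called genes were named after their values were seen, and 1 gene that the rule named is not reported here. Alternatives were DESeq2 1.42.0, limma 3.58.1 voom with quality weights, RLE size factors, no filter or a filter of 1 CPM in 4 libraries, fits of the compared groups alone, removal of immunoglobulin genes, omission of each library in turn, and omission of replicates 6 and 8 together, which an earlier reading of these data had set apart. Replicates were numbered by the sample titles.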

Additional observations from a re-analysis of the deposited data

Results flagged for a closer look

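A gap test within each group of 4 libraries was applied to the named genes and count ratios. It marked 4 of 105 groups, where chance marks about 1 in 20, and none of them was a group of the 10 class I genes. Psme1 stood at 223 CPM in untreated 10-week replicate 5, against 158 to 169 CPM in the other 3. H2-Eb1 stood at 1945 CPM in the same library, against 1369 to 1386 CPM, and at 1170.1 CPM in 2DG replicate 10, against 1359 to 1385 CPM. Psma4 stood at 61.5 CPM in 2DG replicate 12, against 59.3 to 59.6 CPM.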

How the results depend on the processing

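With 2DG against no treatment at 10 weeks, 10 of the 10 class I genes passed by edgeR over all 12 libraries and 8 to 10 under the alternatives (9 to 10 when a library was left out). All genes passing numbered 1376, and 581 with the compared groups alone, 2304 by DESeq2, 3193 without replicates 6 and 8, and 514 to 2209 when a library was left out (514 without replicate 11, 515 without replicate 10, 725 without replicate 5 and 2209 without replicate 8). Between the untreated ages, 0 of the 10 passed, against 1 with no filter, 4 by DESeq2, 9 without replicates 6 and 8, and 0 to 6 when a library was left out. All genes passing numbered 1, against 102, 682 and 2303 under those settings, 0 with the compared groups alone, 18 by voom, and 0 to 1563 when a library was left out (1563 without replicate 8, at most 1 otherwise). For 2DG against 6 weeks, 0 of the 10 passed, against 4 with the compared groups alone, 1 by DESeq2 and 3 by voom, and 0 when a library was left out. All genes passing numbered 24, against 1367, 902 and 1665 under those settings, 98 with no filter, 758 without replicates 6 and 8, and 1 to 354 when a library was left out (354 without replicate 7). No count ratio turned sign or passed in any alternative. With a library left out, the smallest adjusted p of the exact permutation tests was 0.0643. The cause of these differences was not tested.

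The log2 changes that turned sign passed neither before nor after. Leaving out a library at a time, they ran between the untreated ages from -0.065 to 0.071 for Lnpep (positive without replicate 3 or 7), from -0.023 to 0.24 for Psme2 (negative without replicate 5) and from -0.18 to 0.0039 for Ciita (positive without replicate 6). With 2DG at 10 weeks, Ciita ran from -0.031 to 0.14 (negative without replicate 6). For 2DG against 6 weeks the ranges were -0.017 to 0.060 for H2-Eb1, -0.046 to 0.017 for Psmb6, -0.098 to 0.044 for Psmb5, -0.057 to 0.065 for Psmb7, -0.082 to 0.037 for Ciita, -0.011 to 0.10 for Nfya, -0.097 to 0.022 for H2-T10, -0.11 to 0.017 for H2-M3, -0.15 to 0.015 for H2-Q4 and -0.16 to 0.055 for H2-Q7, and H2-Eb1 was also at -7.81e-06 with the 1 CPM filter. No paired analysis was possible because replicates are numbered from 1 to 12 without a break, so that no number occurs in 2 groups. Low counts limit Ifng and H2-Q2.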
